A study of Mus musculus with 7 samples.

Results

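RNA was measured in 10 genes of transposon defence and small RNA pathways (Piwil1, Piwil2, Piwil4, Mov10l1, Ddx4, Mael, Tex15, Dicer1, Ago2 and Marf1) in ovulated mouse oocytes, among 18951 gene symbols in all. The genes were chosen by their roles and with 1 measured value in view, the normalized counts of Tex15, which had been seen to be lower in oocytes that lack Nlrp2, a maternal effect gene of the NLR family. Differences between null and wild-type (WT) pools are therefore given for the 10 genes as a description and are not tested. All 10 symbols were in the table, and 9 passed a filter on low values (a mean of at least 10 normalized counts over the pools), Piwil4 being the exception.

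The samples were 3 WT and 4 Nlrp2-null pools, all from C57BL/6 females aged 4 weeks. A pool held about 150 denuded oocytes of 3 to 4 mice of 1 genotype, so an animal's own value is not seen. The labels give neither the exons that the null allele lacks nor how it was made. They do not say whether pools shared animals, so p-values rest on differences between pools and not between animals.

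Small RNAs guide Argonaute proteins to matching transcripts. PIWI proteins carry piRNAs, which in the fetal testis cut transposon RNA and direct DNA methylation to transposons, while Dicer cuts long RNA duplexes into siRNAs that AGO2 uses as a slicing enzyme. In the mouse oocyte the Dicer and siRNA route is known to hold down transposon transcripts, and females that lack PIWI proteins remain fertile. MARF1 is an RNA endonuclease that oocytes need to resume meiosis and to limit retrotransposon transcripts.

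Between 71073973 and 96330083 reads stood behind the normalized counts of a pool. Nlrp2 itself stood at 0.259% of its WT mean in the null pools. All 12 oocyte markers were found in every pool, with a summed level of 842410 to 925397 normalized counts in WT and 887477 to 1033390 in null pools. Markers of cumulus and granulosa cells, which surround the oocyte and were stripped off, summed to 48899 to 75392 in WT and 59767 to 86309 in null pools. Of the 30 markers 29 were in the table and none was at 0 in every pool, though Amh was at 0 in all 3 WT pools and in null 2 and null 4. Of 27 tested cumulus markers 23 had positive differences (median log2 difference 0.36) and 0 passed the limma test, with 4 at an unadjusted p under 0.05. The mean log2 level of these 27, used for adjustment below, was 8.36 (WT 2) to 9.40 (WT 1) in WT pools. In null pools it was 8.83 (null 1) to 10.16 (null 4). The library numbers in the labels fall in a lower range (WT 1, WT 2, null 1, null 2) and a higher range (WT 3, null 3, null 4). A lower value in a pool of oocytes can come from fewer oocytes with the transcript or from fewer transcripts per oocyte, and these cannot be told apart.

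Of the 10 genes 7 have an upstream sequence in the RefSeq promoter table (build GRCm38.p6), in 8 windows of 250 bases before a RefSeq start. Tex15, Piwil2 and Ago2 have no entry. Many germline genes are repressed in embryonic stem cells by a complex that contains MGA and MAX, whose binding motif is the E-box CACGTG. These letters, which read the same on both strands, were found in windows of 4 of the 7 genes and in 6.02% of all 32841 promoter windows of that length. They stand in capitals in the lines that follow, each in 30 bases written 5′ to 3′ on the gene's strand, because they are a feature that several of the piRNA genes share.
Ddx4, chr13:112652322-112652351, minus strand: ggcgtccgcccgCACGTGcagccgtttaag
Mael, chr1:166238950-166238979, minus strand: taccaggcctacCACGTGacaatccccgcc
Mov10l1, chr15:88982744-88982773, plus strand: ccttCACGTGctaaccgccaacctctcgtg
Piwil1, distal, chr5:128736055-128736084, plus strand: aaaaccgccaccCACGTGgcagccaatcag
Piwil1, proximal, chr5:128736080-128736109, plus strand: atcagggcccagCACGTGtccacctcgccg
The match ended 23 bases before the RefSeq start in Ddx4, 217 in Mael, 240 in Mov10l1, and 173 and 148 in Piwil1. The gene spans of the GENCODE annotation, given below for each gene, can begin at another start. By those spans the Ddx4 and Piwil1 matches lie inside the gene, and the Mael and Mov10l1 matches lie before it. The Marf1 window and a Piwil4 window also lie inside their genes. Dicer1, Marf1 and Piwil4 did not hold these letters in their windows. An E2F core, GCGGGAA on either strand, was found in Ddx4 alone of the 7 and in 3.82% of all windows. CpG dinucleotides, where DNA methylation is placed, numbered 31 in the Ddx4 window, 39 in that of Dicer1, 18 in Mael, 19 in Mov10l1 and 16 each in Marf1 and Piwil1, against a median of 6 over all windows. Piwil4, with separate starts, held 10 and 0. The E-box letters themselves hold a CpG, and their share was not compared over windows of like CpG number. Mael, of which the levels are described further on, is shown with the 247 bases that precede its annotated exons, the E-box again in capitals.
Mael, chr1:166238748-166238994, minus strand: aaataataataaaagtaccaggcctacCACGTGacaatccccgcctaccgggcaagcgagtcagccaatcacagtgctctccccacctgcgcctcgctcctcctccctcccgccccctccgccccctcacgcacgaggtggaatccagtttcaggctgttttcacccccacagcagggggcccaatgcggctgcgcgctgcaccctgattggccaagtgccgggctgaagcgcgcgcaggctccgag

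The levels of the 10 genes spanned more than 3 orders of magnitude. On a scale of normalized counts per kilobase of exon (GENCODE annotation, GRCm38), Dicer1 was the most abundant in WT pools at 8377 ± 749 (SD, n = 3). Marf1 followed at 5637 ± 476, Mael at 2823 ± 261 and Tex15 at 1618 ± 188. The piRNA genes Piwil1 (646 ± 73.6), Ddx4 (521 ± 45.9) and Mov10l1 (186 ± 63.2) were lower, as was Ago2 (157 ± 9.41). Piwil2 at 12.2 ± 8.06 and Piwil4 at 4.89 ± 7.78 closed the order. The WT values of neighbours in this order did not overlap, except for Mov10l1 with Ago2 and Piwil2 with Piwil4. By normalized count without regard to length Dicer1 ranked 104 and Marf1 325 among the 18951 symbols, and Piwil4 ranked 15219.

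**Figure D1:**
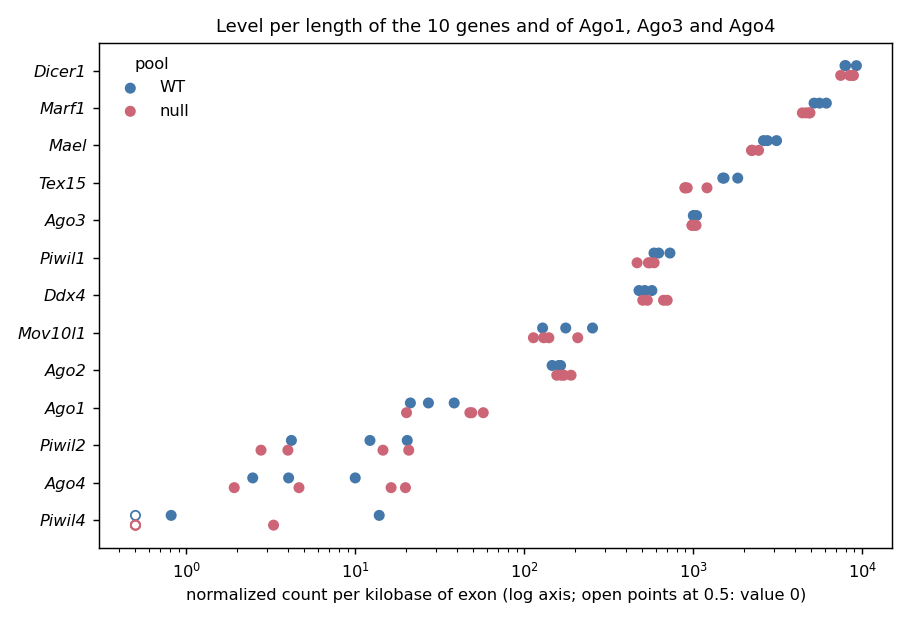
Normalized counts per kilobase of exon (log axis) of the 10 genes and of Ago1, Ago3 and Ago4, 1 point per pool, WT and null pools apart. Dicer1 (WT mean 8377) and Marf1 (5637) stand at the top, and Piwil2 and Piwil4 near the bottom, Piwil4 with open points for pools at 0.

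The PIWI genes were represented almost wholly by Piwil1, the gene of MIWI, which in the testis carries the piRNAs of meiotic and later germ cells. Its share of the summed per-kilobase level of the 3 PIWI genes was 97.4% ± 0.574 (SD, n = 3) in WT and 97.9% ± 1.47 (SD, n = 4) in null pools. Piwil1 lies on chromosome 5 (128702524 to 128755474, plus strand). WT 1, WT 2 and WT 3 had 2572, 3000 and 2414 normalized counts of it, and null pools 1 to 4 had 2236, 1917, 2283 and 2418. The null mean was 83.1% of the WT mean, and null 4 lay just above WT 3, so the groups overlapped. The log2 difference, null minus WT on log2(normalized count + 1), was -0.27 (SE 0.142). It was -0.42 within the lower range of library numbers and -0.04 within the higher range, which holds 1 WT pool, and -0.18 without WT 2.

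Piwil2, the gene of MILI, which starts piRNA amplification in fetal germ cells, was near the limit of what these pools can show. It lies on chromosome 14 (70372477 to 70429383, minus strand) and rested on 13 to 105 reads per pool. The values were 60.04, 99.8 and 20.6 normalized counts in WT pools 1 to 3 and 101.9, 71.7, 19.6 and 13.6 in null pools 1 to 4. The 4 pools of the lower range of library numbers were all above the 3 of the higher range, in both genotypes. The null minus WT log2 difference of -0.40 (SE 0.874) was smaller than its error, and it turned to 0.09 without WT 2 and 0.07 without null 4. Adjusted for the mean of the cumulus markers it was 0.42, and without null 3 and null 4 it was 0.76.

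Piwil4, the gene of MIWI2, the nuclear PIWI protein that directs DNA methylation to transposons, was listed at 0 in 4 of the 7 pools. It lies on chromosome 9 (14696230 to 14740733, minus strand), and an antisense gene on the opposite strand overlaps its exons. WT pools 1 to 3 held 0, 3 and 59 reads and null pools 1 to 4 held 0, 0, 0 and 11 reads. A count of 0 allows up to 3 reads, which is 2.94 to 3.25 normalized counts in the pools at 0. Expression beyond WT 3 and null 4 was thus at or under that limit, and no ratio between genotypes is given.

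The partners of the PIWI proteins ranged from Mov10l1 at 186 to Mael at 2823 normalized counts per kilobase in WT pools. Mov10l1, an RNA helicase that makes piRNA precursors available for processing, lies on chromosome 15 (88982909 to 89055152, plus strand). It stood at 1049, 728 and 531 normalized counts in WT pools 1 to 3 and at 857, 579, 539 and 469 in null pools 1 to 4. The spread within each group, 34.0% of the mean in WT and 27.9% in null pools, was larger than the distance between the group means (log2 difference -0.31, SE 0.277). WT 1 and null 1 were the highest pools of their groups, and the groups overlapped. Single pools moved the difference, to -0.06 without WT 1, -0.55 without WT 3, -0.49 without null 1, -0.20 without null 4 and -0.07 without both null 3 and null 4. It was -0.31 within the lower and -0.08 within the higher range of library numbers.

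Ddx4, the DEAD-box helicase also called mouse vasa homolog, marks germ cells and acts in the granules where piRNAs are made. It lies on chromosome 13 (112598333 to 112652475, minus strand). Its normalized counts were 1440, 1715 and 1556 in WT, and 1613, 2011, 2114 and 1515 in null pools. Null 2 and null 3 lay above every WT pool, while null 1 and null 4 lay among them. The null mean was 115% of the WT mean (log2 difference 0.20, SE 0.166, and 0.12 without null 3).

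Mael encodes maelstrom, a protein of germ cell granules that is needed to silence transposons in male meiosis. It lies on chromosome 1 (166201201 to 166238747, minus strand). Its values were 4516, 4765 and 5395 normalized counts in WT pools and 3859, 3834, 3870 and 4220 in null pools. All 4 null pools were below all 3 WT pools, and null 1, null 2 and null 3 were close together. The null mean of 3946 ± 183 (SD, n = 4) was 80.7% of the WT mean of 4892 ± 453 (SD, n = 3), a log2 difference of -0.31 (SE 0.114). It was -0.27 within the lower and -0.42 within the higher range of library numbers, and -0.31 after adjustment for the mean of the cumulus markers.

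Tex15, the gene for which the list was drawn up, had the largest difference among the 8 genes with a mean of at least 100 normalized counts. It encodes a large germ cell protein that in the testis is needed for meiotic recombination and works with MIWI2 in the methylation of transposons. It lies on chromosome 8 (33516738 to 33585582, plus strand), and no exon of another annotated gene overlaps it. Its normalized counts were 12578, 15414 and 12795 in WT, while null pools 1 to 4 held 10138, 7744, 7529 and 7503. Null 1 was at 74.6% of the WT mean and the other null pools were at 55.2% to 57.0%, so all null pools lay below all WT pools. The means were 13596 ± 1578 (SD, n = 3) and 8228 ± 1277 (SD, n = 4), a log2 difference of -0.73 (SE 0.120).

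The Tex15 difference was -0.65 within the lower and -0.77 within the higher range of library numbers. Over 21 alternative settings it ran from -0.60, adjusted for the mean of the cumulus markers, to -0.83, without null 1. It was -0.61 without null 3 and null 4, whose summed cumulus markers were the highest of the 7 pools. The lowest pool held 7170 reads of Tex15, a counting error of 1.18% if every read stands for a molecule of its own. The number of molecules behind the reads is not known. The spread between pools was 11.6% in WT and 15.5% in null.

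**Figure D2:**
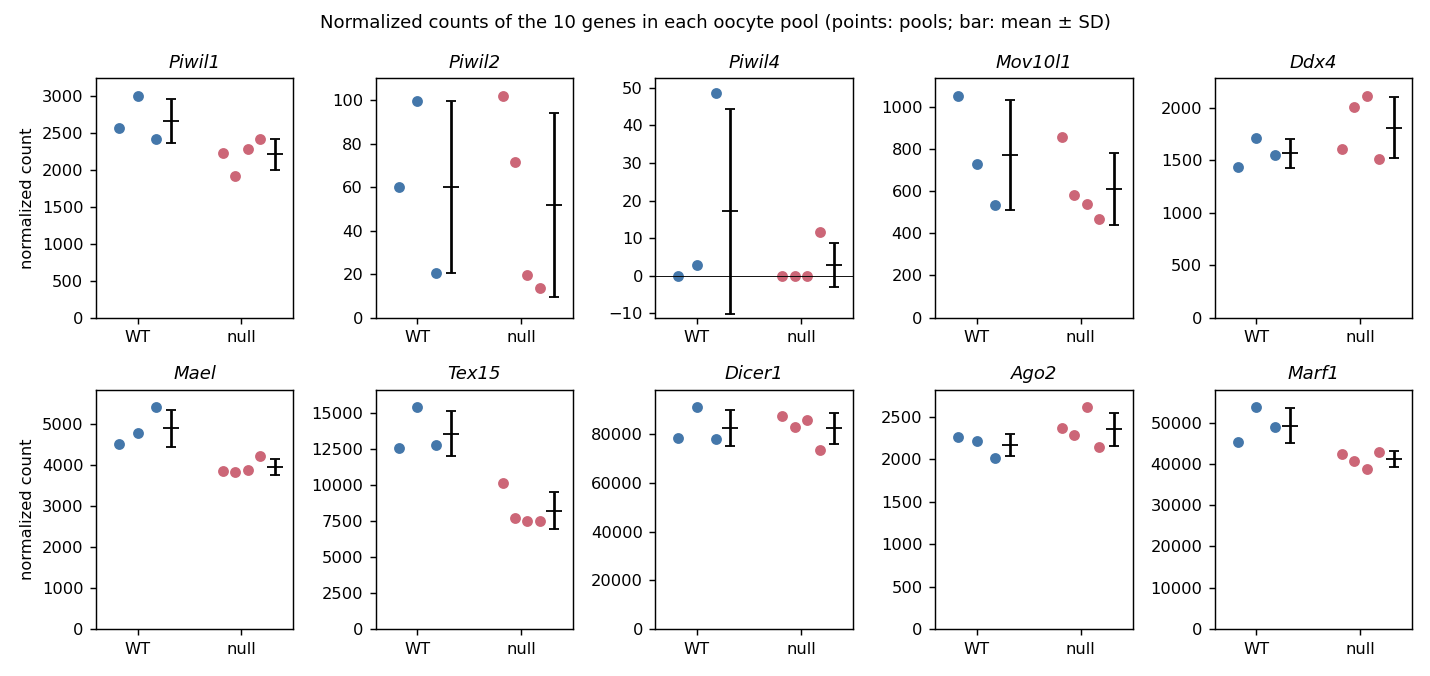
Normalized counts of each of the 10 genes (linear axes of their own), 1 point per pool in replicate order, with the mean and SD of each group beside the points. In Tex15, Mael and Marf1 all null pools lie below all WT pools, and in the other genes the groups overlap.

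The genes of the siRNA and microRNA core overlapped between the groups. Dicer1, whose enzyme cuts RNA duplexes and microRNA precursors, lies on chromosome 12 (104687742 to 104751952, minus strand). It stood at 78587, 91041 and 77946 normalized counts in WT and at 87467, 83000, 86018 and 73473 in null pools. The null mean was 99.96% of the WT mean, with a standard error of 0.0841 on the log2 scale, and the groups overlapped. The table gives 1 value per gene, so the oocyte form of Dicer, which starts within the gene, is not told apart from the full-length form.

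Ago2, the only mammalian Argonaute with strong slicing activity, lies on chromosome 15 (73095844 to 73184935, minus strand). Exons of Chrac1 on the opposite strand overlap those of Ago2, and the sources used here do not give the strand setting of the counting. Its normalized counts were 2264, 2211 and 2017 in WT, and 2370, 2287, 2611 and 2149 in null pools. Null 4 lay among the WT pools and the other null pools above them (log2 difference 0.12, SE 0.136). The difference was 0.07 without WT 3 or without null 3, 0.06 with equal medians, and 0.06 within the lower and 0.23 within the higher range.

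Among the 4 Argonaute genes Ago2 was not the most abundant. Ago3 took 84.2% ± 1.72 (SD, n = 3) of their summed per-kilobase level in WT and 81.8% ± 1.57 (SD, n = 4) in null pools. Ago2 took 12.9% ± 0.815 and 13.8% ± 0.700, Ago1 2.39% ± 0.725 and 3.53% ± 1.33, and Ago4 under 1% on average in each group. In each of the 7 pools Ago3 was above Ago2, Ago2 above Ago1 and Ago1 above Ago4. These shares depend on the annotated exon length, which is long for Ago3 (15.6 kb) and Ago2 (13.8 kb).

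Marf1, the oocyte endonuclease, lies on chromosome 16 (14109173 to 14163351, minus strand). It held 45396, 53677 and 48852 normalized counts in WT pools and 42372, 40697, 38691 and 42925 in null pools. The highest null pool was below the lowest WT pool, and the null mean of 41171 ± 1906 (SD, n = 4) was 83.5% of the WT mean of 49309 ± 4159 (SD, n = 3). The log2 difference was -0.26 (SE 0.0808), and -0.25 within the lower and -0.26 within the higher range. Nde1 and Mir484 on the opposite strand and a microRNA gene on its own strand overlap its exons, so its count may hold reads of other genes.

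**Figure D3:**
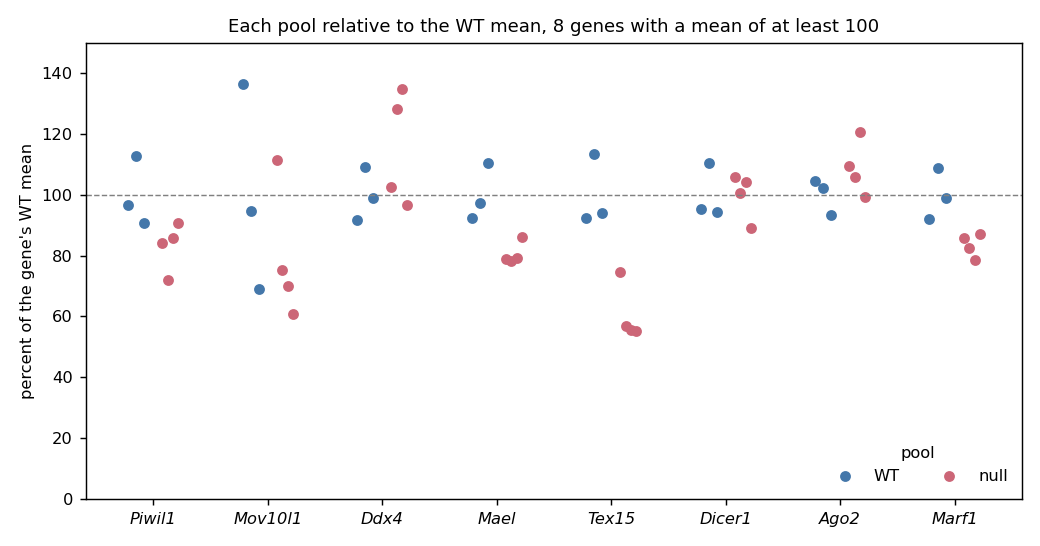
Each pool's normalized count as a percent of the gene's WT mean, for the 8 genes with a mean of at least 100 normalized counts (points: pools; dashed line: WT mean). Null pools of Tex15 lie at 55.2% to 74.6%, and those of Mael and Marf1 at 78.4% to 87.1%. Those of Piwil1 lie at 72.0% to 90.8%, with only null 4 above the lowest WT pool (90.7%). Those of the other genes lie among or around the WT pools.

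Across the 9 genes past the filter 7 had negative differences, with a median log2 difference of -0.27, beside 7423 of 15071 and a median of 0.01 over all tested genes. The number with negative differences was 5 to 8 under the alternatives. In 3 of the 9 all null pools lay below all WT pools, where 5.16% of all tested genes did so, and in 0 they lay above, where 4.74% did. Because these genes were listed with the contrast in view, nothing is read from these counts. No call is given for them in this contrast.

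Genes of other roles correlated with Tex15 over the 7 pools. Group means were not removed, so the step from WT to null pools, on which Tex15 was chosen, enters these correlations. Among 10528 genes with a mean of at least 100 normalized counts, the highest Pearson correlations of log2 values with Tex15 were those of Dlat (0.989), a subunit of pyruvate dehydrogenase, and Ptpre (0.983), a tyrosine phosphatase. The zinc transporter gene Slc39a6 (0.978), the meiotic cohesin gene Smc1b (0.977) and Eps15l1 (0.977), an endocytic adaptor, followed. Smc1b went from 6043 to 4748 normalized counts, a ratio of 0.786, and Dlat from 8924 to 7733, a ratio of 0.866. The ratio of Tex15 was 0.605, so a high correlation does not mean a change of like size. In all 125 genes had a correlation above 0.9, and how many would reach this by chance was not estimated. Of the listed genes Marf1 had 0.907 with Tex15, Mael 0.756 and Piwil1 0.751. Mov10l1 had 0.555, Piwil2 0.460 and Dicer1 0.287, while Ago2 (-0.462) and Ddx4 (-0.494) were negative. All these values describe the same 7 pools, which differ in genotype, depth and cumulus marker level.

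A contrast that played no part in the choice of the genes is that between the ranges of library numbers. With genotype in the fit, 0 of 15071 genes (0%) passed limma at an adjusted p under 0.05 between the higher and the lower range, 790 had an unadjusted p under 0.05 (5.24%), edgeR called 0 and DESeq2 12. None of the 9 genes passed, and 2 had an unadjusted p under 0.05, both lower in the higher range. Piwil2 had a log2 difference of -2.13 (SE 0.729, limma adjusted p = 0.913) and Mov10l1 one of -0.58 (SE 0.248, limma adjusted p = 0.913). Tex15 had -0.19 (SE 0.114, limma adjusted p = 0.923) and Marf1 -0.02 (SE 0.0832, limma adjusted p = 0.983). Piwil2 reads were few in all pools, and its values in the ranges are those given above.

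Other genes of these pathways, listed by role, were tested between null and WT pools in the fit over all genes, of which limma called 0.0664%, edgeR 0.0464% and DESeq2 1.25%. None of 110 tested genes passed in limma, 12 had an unadjusted p under 0.05 (3 higher, 9 lower, beside 10.2% of all tested genes), and edgeR and DESeq2 called 0. The median log2 difference was -0.02. All null pools lay below all WT pools in 7 of the 110 (6.36%, against 5.16% of all tested genes) and above in 2 (1.82%, against 4.74%), so the share below was near that of all genes.

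Of 27 tested genes of the piRNA pathway 19 had negative differences (median -0.11), and the 5 with an unadjusted p under 0.05 were all lower, beside 7423 of 15071 negative (median 0.01), 743 lower and 795 higher over all tested genes. Tdrd5, a Tudor protein gene needed to silence transposons in the testis, was at 14363 ± 1511 (SD, n = 3) in WT and 11463 ± 1653 (SD, n = 4) in null pools (log2 difference -0.33, SE 0.116, limma adjusted p = 0.355). Rnf17, which also encodes a Tudor protein, had 13739 ± 737 and 10924 ± 1920 normalized counts (-0.35, SE 0.121, limma adjusted p = 0.355). In both genes null 1 lay among the WT pools, and the differences were -0.17 each when adjusted for the mean of the cumulus markers, and -0.19 and -0.14 without null 3 and null 4. Mybl1, the transcription factor A-MYB that drives piRNA genes in the testis, was at 9077 ± 555 and 7754 ± 611 without overlap (-0.23, SE 0.100, limma adjusted p = 0.461). Fkbp6, a cochaperone of piRNA loading, was low, at 94.6 ± 76.6 and 18.6 ± 12.99 (-2.17, SE 0.948, limma adjusted p = 0.458).

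In the siRNA and microRNA machinery 20 of 28 tested genes were positive (median 0.07). Ddx5, an RNA helicase that assists Drosha, was at 16882 ± 966 (SD, n = 3) in WT and 20043 ± 2081 (SD, n = 4) in null pools (log2 difference 0.24, SE 0.0954, limma adjusted p = 0.404), with all null pools above all WT pools. Adar, which edits adenosine in RNA duplexes, was at 3554 ± 293 and 2894 ± 248 (-0.30, SE 0.127, limma adjusted p = 0.445). Zcchc11, a uridyltransferase gene also called Tut4, was at 519 ± 160 and 908 ± 383 (0.76, SE 0.312, limma adjusted p = 0.432). It was highest in null 3 and null 4, and its difference was 0.23 when adjusted for the mean of the cumulus markers and 0.27 without those pools. Tsnax, a subunit of the C3PO nuclease, was at 2188 ± 605 and 2797 ± 244 (0.39, SE 0.172, limma adjusted p = 0.464), with a difference of 0.18 without WT 3 and 0.58 without WT 2.

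Of 36 genes that silence transposons through chromatin 22 were negative (median -0.02). Cbx1, a heterochromatin protein 1 gene, had the smallest p, at 4652 ± 496 (SD, n = 3) in WT and 3496 ± 226 (SD, n = 4) in null pools without overlap (log2 difference -0.41, SE 0.120, limma adjusted p = 0.252). Mphosph8, a gene of the HUSH silencing complex (-0.18, SE 0.0897), its partner Pphln1 (-0.18, SE 0.0883) and Rif1 (-0.14, SE 0.0743) came next, with limma adjusted p values of 0.509, 0.509 and 0.546. Without WT 1 the Mphosph8 difference was -0.08. Of 19 genes that act on retrotransposon RNA or DNA 11 were negative (median -0.13). The DNA repair genes Nbn (2213 ± 227 and 1643 ± 315, limma adjusted p = 0.402) and Brca1 (23735 ± 1761 and 19752 ± 2924, limma adjusted p = 0.408) had differences of -0.45 (SE 0.174) and -0.27 (SE 0.108). Adjusted for the mean of the cumulus markers these were -0.21 and -0.13, and without null 3 and null 4 they were -0.24 and -0.14. Ercc4, an endonuclease gene (327 ± 37.2 and 231 ± 48.9, limma adjusted p = 0.636), and the exonuclease gene Trex1, which was low (63.01 ± 38.4 and 24.4 ± 37.8, limma adjusted p = 0.493), had -0.52 (SE 0.335) and -2.84 (SE 1.34). The Trex1 difference was -1.84 without null 4, -1.44 adjusted for the mean of the cumulus markers, -1.37 in edgeR and DESeq2, -1.54 with a pseudocount of 10 and -0.64 without null 3 and null 4.

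**Figure D4:**
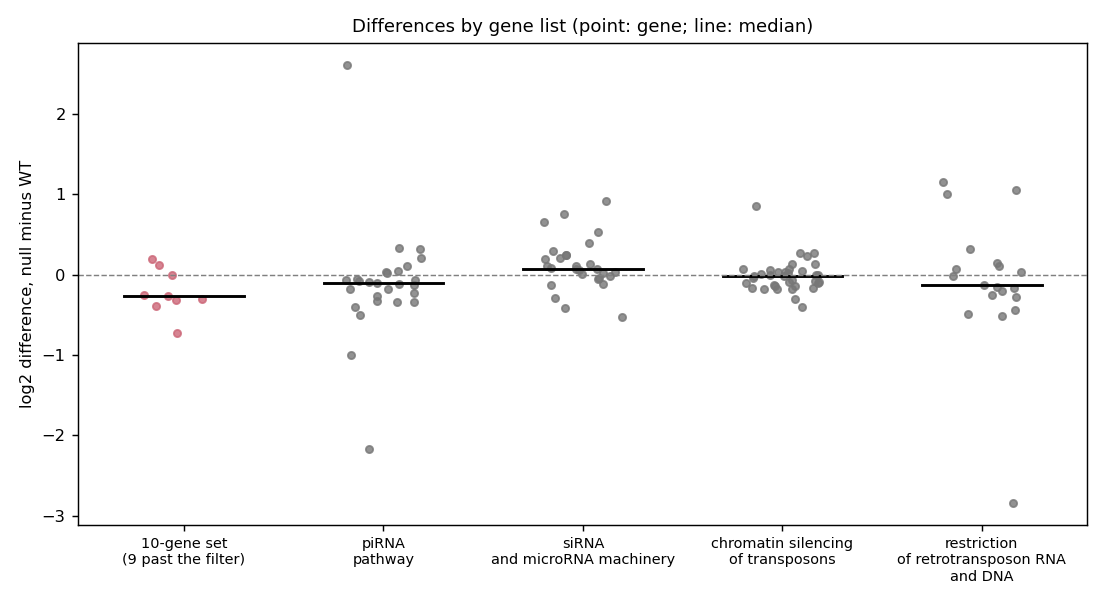
Log2 differences, null minus WT, of the 9 genes past the filter and of the 4 lists of other pathway genes (point: gene; line: median; dashed line: 0). The medians of the 4 lists lie between -0.13 and 0.07. The points of widest distance belong to low genes such as Trex1 (-2.84), Tex19.2 of the piRNA list (2.61) and Fkbp6 (-2.17).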

How the data were processed

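The values used are a deposited signal per gene symbol and pool, which the authors made by dividing counts by a size factor, per the file headers and name. Every value was a whole multiple of its pool's step (tolerance 0.01), so whole reads were recovered for 100% of values. HOMER, DESeq2 1.22.2, featureCounts 1.5.0-p1, HTSeq, DESeq, TopHat2 2.0.9 and STAR 2.5.0a are named per the submitters' processing notes. The sources used here do not give which of them made this table, the annotation or the strand setting. A table of assembled transcripts without gene names was not used.

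limma 3.58.1 (R 4.3.3) with a variance trend was fitted to log2(normalized count + 1) of 15071 genes with a mean of at least 10, null minus WT, with Benjamini-Hochberg adjustment over all of them. The limma SE and p of a gene draw part of its variance from other genes of like level (prior degrees of freedom 10.9, residual 5). Without the variance trend the SE of Tex15 was 0.158 in place of 0.120. edgeR 4.0.16 and DESeq2 1.42.0 ran on recovered reads. DESeq2 left 460 adjusted p values as NA. These fits were tested on simulated data. Exon lengths were unions of coding transcripts' exons. Pools within a group differed beyond sampling noise (lowest chi-square 38.2 per degree of freedom) and each counted as a replicate.

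The 10 genes and all lists were chosen with earlier results of these data known. Other genes were named by rule: the 4 of smallest p in each of 4 pathway lists and the 5 most correlated with Tex15, predicted genes and pseudogenes left out. Markers of 2 other sources were further checks. The oviduct markers (10 in the table, 9 tested) had 8 positive differences, with a median log2 difference of 1.54. Of these 9 limma called 0, and 4 had an unadjusted p under 0.05. The leukocyte and blood markers (7 in the table, 5 tested) had 2 positive differences, a median of -0.45 and 0 called.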

Additional observations from a re-analysis of the deposited data

Results flagged for a closer look

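In 32 genes the 4 null pools were screened for a pool far from the others, by the largest gap at an end divided by the range, against Dixon's 95% critical value. Chance flags about 1 in 20 such groups, and 3 were found. In Tex15 the ratio was 0.908, because null 1 (10138 normalized counts) lay above null 2, null 3 and null 4 (7503 to 7744). In Mael it was 0.906, because null 4 (4220) lay above the others (3834 to 3870). In Piwil4 it was 1, because null 4 held 11 reads and the others 0. With the others at 0 the ratio is 1 for any count in null 4, so this flag says nothing on its distance.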

How the results depend on the processing

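The count of genes called between null and WT pools was 10 in limma, 6 with equal medians in every pool, 0 without the variance trend (1252 at an unadjusted p under 0.05), 188 in DESeq2, 1 with the replicate block, and 5 without null 3 and null 4. Leaving out 1 pool gave 5 (without WT 2) to 19 (without null 1), and 6 without WT 3. The count between library-number ranges was 0 in limma, 1 without the variance trend and 12 in DESeq2, and leaving out 1 pool gave 0 to 19, the 19 without WT 1. The causes were not tested. No alternative called any gene of the pathway lists, or any of the 10 genes between ranges. Same-numbered pools did not deviate together (correlations of -0.16, 0.02 and -0.01), so the replicate block pairs numbers only. With it Tex15 had a log2 difference of -0.69. No WT pool shares the number of null 4, so the block takes null 4 out of the difference. Leaving out null 4 gave the same -0.69. Of the 9 genes past the filter Tex15, Mael, Marf1, Piwil1, Mov10l1, Ddx4 and Ago2 kept their sign in all 21 settings. Dicer1 and Piwil2 did not. Every setting drew on the same pools, and the genes were listed with the Tex15 values in view. Some settings cannot move an estimate: Tex15 stayed at -0.73 with no filter, a mean of at least 100 or no variance trend. The kept signs are therefore a description and not a separate test of the differences.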

Other observations

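Of the 10 oviduct epithelium markers 6 were highest in null 4. Krt19, a keratin gene, was at 448 normalized counts in null 4 and at 0 in the other 6 pools, and Wt1 was at 109.9 in null 4 and at most 3.92 elsewhere; these 2 were named after their values were seen. Other markers of the list did not share this. Foxj1 and Pax8 were at 0 in null 4, and Ovgp1 was at 49.2 there against 106 in null 1 and 93.2 in null 3. Cdh1 in null 4 (27978) was the lowest of the null pools. It was at 20358 to 36101 in every pool, where the next highest marker, Epcam, reached at most 849. A small contribution of other cells would not be seen in Cdh1. In null 4 Tex15 (7503) was the lowest of the null pools, and Marf1 (42925) and Mael (4220) were the highest.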
